A study of Mus musculus with 3 samples.

Results

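The genes described here encode the matrix metalloproteinases (MMPs), the ADAMTS proteinases, the ADAMTS-like proteins and the tissue inhibitors of metalloproteinases (TIMPs). They were found by gene symbol, as every probe set with 1 symbol that begins with Mmp, Adamts or Adamtsl plus a number, or that is Timp1, Timp2, Timp3 or Timp4. The search gave 42 genes of the 18193 on the array, with 78 of its 34945 probe sets that have 1 symbol. A further 9 genes whose RefSeq symbols match the rule (Adamts2, Adamts13, Adamts14, Adamts17, Mmp15, Mmp21, Mmp25, Mmp27 and Mmp28) are not analysed here. The study profiled cells labelled endosteal, from the inner surface of bone, of C57BL/6 mice; the source label reads murine bone marrow. Pieces of femur and tibia were treated with collagenase, and cells without CD45, CD31 and Ter119, which mark blood, vessel and erythroid cells, were sorted. The sort used PDGFRα, a growth factor receptor of mesenchymal cells, and Sca-1, a surface marker of mesenchymal progenitors. The groups are PDGFRα-Sca-1- cells, PDGFRα+Sca-1- cells and PDGFRα+Sca-1+ cells, with 1 Affymetrix array each. The labels state neither the age of the mice nor whether animals were pooled.

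MMPs are zinc-dependent proteinases that are made as inactive precursors and that cleave collagens, gelatin and other matrix and surface proteins. ADAMTS enzymes are secreted relatives with thrombospondin repeats, and several cut the large proteoglycans aggrecan and versican. ADAMTS-like proteins carry the accessory domains without the proteinase domain, and TIMPs bind and block the active enzymes. In the skeleton these genes are known for the removal of growth plate cartilage, the remodelling of bone collagen and the loss of aggrecan in joint disease.

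Values are probe set signals on a linear scale, and 3 signals given together are in the order PDGFRα-Sca-1-, PDGFRα+Sca-1-, PDGFRα+Sca-1+. The Sca-1 step is the ratio of the PDGFRα+Sca-1+ signal to the PDGFRα+Sca-1- signal. The PDGFRα step is the PDGFRα+Sca-1- signal divided by that of PDGFRα-Sca-1- cells, and the combined step is the last of the 3 signals divided by the first. A floor of 93.2, the mean of the 3 array medians, stands in for detection calls, and each gene is represented by the brightest of its probe sets, judged by mean log2 signal. A ratio against a signal under the floor is a bound, written "at least", and genes under the floor on both arrays were not compared. A mean over probe sets also takes in probe sets under the floor on both arrays. These were raised to the floor and pull the mean toward no change. With 1 array per population there is no replicate and no test, so each difference is one between arrays, and precision is limited by the number of arrays. Ratios are taken across arrays for the same probe set, never between genes. Summed signals of marker lists add different probe sets, so the brightest ones weigh most.

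The sorting markers and cell type markers show what the arrays hold. Pdgfra gave 587, 2420.1 and 12844, while Ptprc (CD45) and Pecam1 (CD31) were under the floor on all 3 arrays. The Pdgfra signal was 4.13-fold up in the PDGFRα step and 5.31-fold up in the Sca-1 step. Ly6a, the gene of Sca-1, had no probe set with 1 symbol, so its signal was not checked. All 7 chondrocyte markers were above the floor on every array, with summed signals of 140431, 154673 and 38663, although the label names endosteal cells. Comp (29365, 28923 and 25253) makes up most of the sum on the last array. In the Sca-1 step 6 of the 7 markers were at least 2-fold lower, against 11.3% of all genes. Matn1 and Col9a2 were near the floor in PDGFRα+Sca-1+ cells, at 115 and 129. The 3' to 5' signal ratio of the Actb control, which grows as RNA is shortened, was 2.99, 2.62 and 4.65. That of the Gapdh control was 3.93, 3.54 and 4.73, closer together but again highest on the last array.

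In the RefSeq gene table, 10 MMP genes follow one another on mouse chromosome 9 with no other protein-coding gene between them. Their order is Mmp13, Mmp12, Mmp1b, Mmp3, Mmp1a, Mmp10, Mmp8, Mmp27, Mmp20 and Mmp7, and 9 of the 10 had a probe set. Of these 9, Mmp13, Mmp3 and Mmp10 were above the floor on at least 1 array. The promoter stretches of these 3 genes are shown because the genes belong to this run, share sequence motifs and had different signal patterns. Since sharing motifs was a reason for the choice, the letters they share are not a separate result. Each stretch covers the 140 bases before the RefSeq start, from assembly GRCm38.p6, on the plus strand, 5′ to 3′. Capitals mark TGAGTCA, the AP-1 motif bound by Fos and Jun proteins, TGTGGTT, a motif of RUNX factors, and TATAAA, the TATA motif, each on either strand.
Mmp13, chr9:7272374-7272513: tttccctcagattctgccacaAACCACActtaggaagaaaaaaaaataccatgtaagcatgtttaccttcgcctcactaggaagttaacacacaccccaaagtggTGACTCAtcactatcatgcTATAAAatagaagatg
Mmp3, chr9:7445682-7445821: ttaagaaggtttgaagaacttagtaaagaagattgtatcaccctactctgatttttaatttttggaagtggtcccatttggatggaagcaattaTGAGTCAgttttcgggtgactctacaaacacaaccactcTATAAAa
Mmp10, chr9:7502202-7502341: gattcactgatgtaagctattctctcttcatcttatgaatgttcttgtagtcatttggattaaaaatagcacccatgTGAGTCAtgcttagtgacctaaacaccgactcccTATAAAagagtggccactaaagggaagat

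All 3 stretches hold the AP-1 letters, whose first base lies at position -35 in Mmp13, -46 in Mmp3 and -63 in Mmp10, counted from the start. In windows from 250 bases before to 50 after the start, these letters were found for 7 of the 10 neighbouring MMP genes and for 0 of 26 other genes of the families with a window. Of all 27025 genes with a window, 5.95% had them. The TATA letters were found for 9 of the 10 neighbours and for 3 of the 26 other genes, against 15.7% of all genes. The RUNX letters were found for 3 of the 10 neighbours, Mmp13, Mmp27 and Mmp7, and for 0 of the 26 others, against 6.09% of all genes. A match describes the letters in the window and is not shown to be a binding site. The 10 neighbours are genes of the same family that lie side by side, so they are not independent cases of a motif. Mmp12, Mmp1b, Mmp1a and Mmp7 carry the AP-1 letters too and were under the floor on all 3 arrays.

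**Figure D1:**
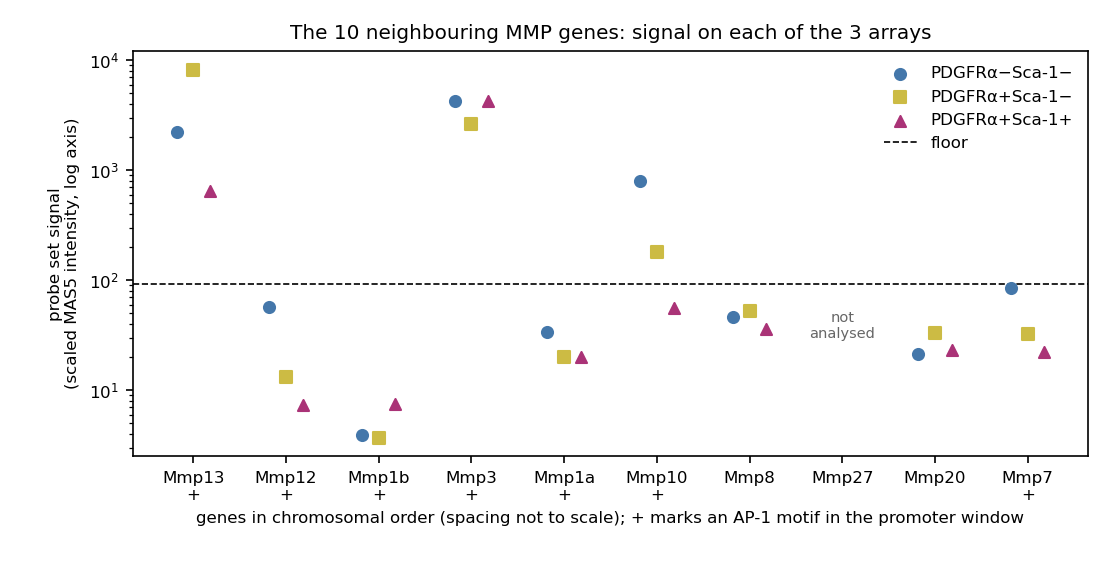
Signals (log axis) of the 10 neighbouring MMP genes in chromosomal order, 1 point per array; the dashed line is the floor of 93.2 and a plus sign marks genes with the AP-1 letters in the promoter window. Mmp13, Mmp3 and Mmp10 are the genes with points above the floor, and the highest point is PDGFRα+Sca-1- for Mmp13 and PDGFRα-Sca-1- for Mmp10.

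The collagenase Mmp13, which cleaves fibrillar collagen and is known from hypertrophic cartilage and osteoblasts, gave signals of 2225, 8224 and 650.1. It was highest in PDGFRα+Sca-1- cells and lowest in PDGFRα+Sca-1+ cells, with all 3 signals at least 2-fold apart. The PDGFRα step was 3.70-fold up, the Sca-1 step 12.7-fold down and the combined step 3.42-fold down. Markers of hypertrophic cartilage and most of those of bone had the same order. The summed signal of the 3 hypertrophic chondrocyte markers (Col10a1, Ihh and Panx3) was 16983, 42053 and 549, with 3, 3 and 2 of them above the floor. That of the 6 osteoblast markers with a probe set was 31253, 98967 and 17997, with 6, 6 and 5 above it. Ibsp, Alpl, Sp7 and Dmp1 were lowest in PDGFRα+Sca-1+ cells, as Mmp13 was, but Col1a1 (7478, 25128 and 14415) and Phex (913, 12018 and 2353) were lowest in PDGFRα-Sca-1- cells, and Col1a1 makes up most of the sum on the last array. Their part in the Mmp13 signal was not tested. In populations measured in bulk, fewer cells of a type and less RNA per cell cannot be told apart. The other collagenase genes, Mmp1a, Mmp1b and Mmp8, were under the floor on all 3 arrays, with highest signals of 33.7, 7.49 and 52.5.

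The stromelysin Mmp10, which degrades proteoglycans and other matrix proteins, gave 796, 181 and 55.3. Its signal was highest in PDGFRα-Sca-1- cells and did not reach the floor in PDGFRα+Sca-1+ cells. The PDGFRα step was 4.40-fold down and the combined step at least 8.54-fold down, while the Sca-1 step, at least 1.94-fold down, is a bound that passes 2-fold with a lower floor. Mmp10 was the only gene of these families at least 2-fold above both others in PDGFRα-Sca-1- cells, a pattern of 3.19% of the 12211 genes above the floor on any array. Its neighbour Mmp3, the stromelysin that also activates other MMP precursors, gave 4302, 2644 and 4228 and stayed within 2-fold in every comparison. Mmp11, a stromelysin known from tumour stroma, gave 18.1, 55.0 and 205. It was above the floor only in PDGFRα+Sca-1+ cells, by at least 2.20-fold over the others, and could not be compared once the floor was raised to 256, the 67th percentile.

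The gelatinase Mmp2, which degrades denatured collagen and is made by many stromal cells, gave 10216, 9688 and 19988. PDGFRα+Sca-1+ cells had the highest signal, by 2.06-fold in the Sca-1 step and 1.96-fold in the combined step, on either side of the threshold. Its other probe set gave log2 ratios of 1.13 and 1.04 for the same steps. The other gelatinase, Mmp9, known from osteoclasts and neutrophils, was under the floor on all 3 arrays, at 25.1, 61.5 and 24.7. Of 9 neutrophil markers with a probe set, 2, 9 and 9 were above the floor, with summed signals of 677, 3217 and 3281. Of 8 osteoclast markers, 2, 3 and 4 were above it, with summed signals of 5458, 4794 and 13268 that are mostly Ctsk (5078, 4145 and 10799). The osteoclast markers Calcr, Dcstamp, Ocstamp and Oscar were under the floor on every array. Mmp8, the neutrophil collagenase, and Mmp12, the macrophage elastase with a highest signal of 57.0, were under the floor as well. Of 8 macrophage markers, 5, 5 and 4 were above it, with summed signals of 1759, 2785 and 1244 that include Cd14 (1011, 1959 and 367). The macrophage markers C1qa, C1qb and Mrc1 were under the floor on every array.

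Mmp14, a membrane-bound MMP that cleaves collagen and activates the Mmp2 precursor, gave 6190, 4056 and 9095. It was lowest in PDGFRα+Sca-1- cells, with a Sca-1 step of 2.24-fold up. Its 3 probe sets gave log2 ratios from -0.30 to 1.60 for that step, with a mean of 0.82. The ratio of -0.30 came from a probe set near the floor (137, 138 and 112), and the other ratios were 1.16 and 1.60. Mmp16, also membrane-bound, gave 364, 784 and 498, highest in PDGFRα+Sca-1- cells. Its PDGFRα step was 2.16-fold up, with log2 ratios from 0.66 to 1.22 over the probe sets compared. The mean over probe sets was 0.75 for that step, lowered by an Mmp16 probe set under the floor on every array. The Mmp16 Sca-1 step was -0.65 on the log2 scale by the probe set that stands for the gene, within 2-fold. It was -1.08 and -2.04 by the other Mmp16 probe sets compared.

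Mmp23, an MMP anchored in the membrane by its amino-terminal end, had signals of 345, 817 and 1751, highest in PDGFRα+Sca-1+ cells and lowest in PDGFRα-Sca-1- cells. Its PDGFRα step was 2.37-fold up and its Sca-1 step 2.14-fold up. The other Mmp23 probe set kept this order at 409, 577 and 1248, and the mean over probe sets gave 0.87 for the PDGFRα step on the log2 scale. Mmp7, Mmp17, Mmp19, Mmp20 and Mmp24 were under the floor by the probe set that stands for each gene. Another Mmp19 probe set reached 158 in PDGFRα+Sca-1+ cells and another Mmp24 probe set 97.1 in PDGFRα+Sca-1- cells.

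**Figure D2:**
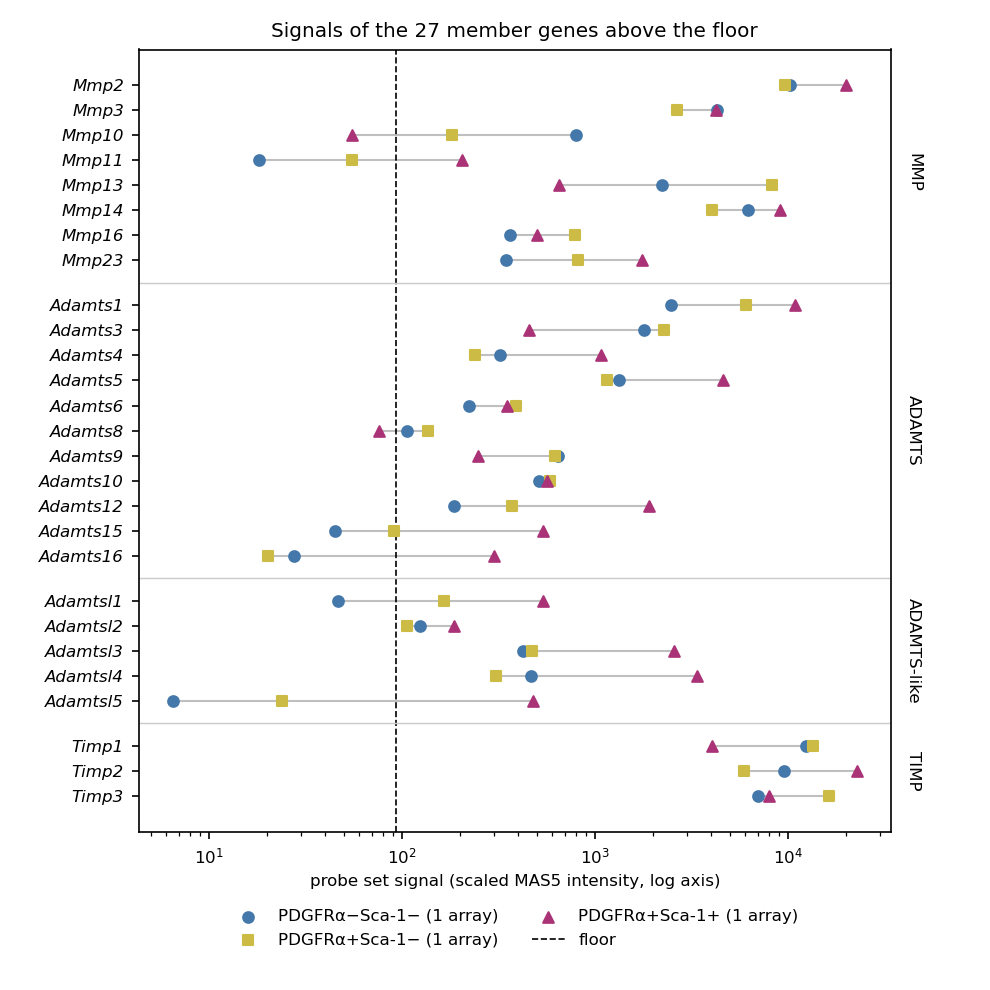
Signals (log axis) of the 27 genes above the floor of 93.2 (dashed line) on at least 1 array, grouped by family, with 1 point per population and a grey line from lowest to highest. The PDGFRα+Sca-1+ triangle is farthest right for 16 of the 27 genes (42.1% of all genes above the floor on any array), and for 11 of the 20 above the floor on all 3 arrays (43.3% of all such genes).

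Of the 6 ADAMTS genes compared that encode enzymes known to cleave aggrecan or versican, 3 had a Sca-1 step at least 2-fold up (14.9% of all genes) and 1 at least 2-fold down (11.3% of all genes). Adamts5, a major aggrecanase of mouse cartilage, gave 1328, 1153 and 4613. Its PDGFRα+Sca-1+ signal was the highest, by 4.0-fold in the Sca-1 step and 3.47-fold in the combined step, and all 3 probe sets above the floor passed 2-fold in both. Adamts4, another aggrecanase, had signals of 324, 239 and 1077, with a Sca-1 step of 4.51-fold and a combined step of 3.33-fold up. The third, Adamts15, entered the count only through its PDGFRα+Sca-1+ signal. It gave 44.9, 90.9 and 535, above the floor only in PDGFRα+Sca-1+ cells, where it was at least 5.74-fold higher.

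Adamts1, which cleaves versican and aggrecan, gave 2485, 6032 and 10919.8. It was lowest in PDGFRα-Sca-1- cells, with a PDGFRα step of 2.43-fold and a combined step of 4.39-fold up, while the Sca-1 step was 1.81-fold. Adamts1 and Adamts5 are direct neighbours in the RefSeq gene table. On the log2 scale the PDGFRα step was 1.28 for Adamts1 and -0.20 for Adamts5. Both went up in the other steps, at 0.86 and 2.00 in the Sca-1 step and 2.14 and 1.80 in the combined step. Adamts15 and Adamts8 are neighbours too, and Adamts8, at 107, 136 and 76.0, was under the floor in the population where Adamts15 was above it.

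Adamts9, an enzyme that cleaves versican and aggrecan, gave 647, 623 and 246, lowest in PDGFRα+Sca-1+ cells. Its Sca-1 step was 2.53-fold down and its combined step 2.63-fold down. This rests on 1 probe set, since the others gave log2 ratios of -0.55 and -0.01 for the Sca-1 step, and the mean over probe sets was -0.63 for that step and -0.43 for the combined step.

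Adamts3, which removes the amino-terminal propeptide of procollagen, gave 1791, 2263 and 457. PDGFRα+Sca-1+ cells had the lowest signal, 4.95-fold down in the Sca-1 step and 3.92-fold down in the combined step. Its other probe set was above the floor on 1 array, at 96.7 in PDGFRα+Sca-1- cells. With the mean over probe sets the combined step was -0.99 on the log2 scale, just within 2-fold. That mean takes in the other probe set, which was under the floor on both arrays of the combined step. The other procollagen-processing genes, Adamts2 and Adamts14, are among those not analysed here.

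Adamts12, which cleaves the cartilage protein COMP, gave 186, 372 and 1894. Its PDGFRα+Sca-1+ signal was 5.09-fold up in the Sca-1 step and 10.2-fold up in the combined step, and the PDGFRα step lay just under the threshold, or just over it at 1.03 on the log2 scale with quantile normalization. Adamts16 gave 27.6, 20.1 and 299.8, above the floor only in PDGFRα+Sca-1+ cells, where it was at least 3.22-fold higher. Its other probe set was under the floor on all 3 arrays, and the mean over probe sets gave 0.84 on the log2 scale. Adamts6 (222, 390 and 348) and Adamts10 (514, 584 and 563) stayed within 2-fold in every comparison. Adamts7, Adamts18, Adamts19 and Adamts20 were under the floor on all 3 arrays.

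All 5 ADAMTS-like genes had their highest signal in PDGFRα+Sca-1+ cells, as did 42.1% of all genes above the floor on any array, and Adamtsl5 was above the floor on that array alone. Adamtsl4, a fibrillin-binding protein known for its part in anchoring the eye lens, gave 466, 306 and 3373. Its Sca-1 step was 11.0-fold and its combined step 7.24-fold up. Adamtsl3 gave 425, 472 and 2570.5, with steps of 5.45-fold and 6.05-fold up.

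Adamtsl5 gave 6.50, 23.9 and 479.7, above the floor only in PDGFRα+Sca-1+ cells, where it was at least 5.15-fold higher, and its other probe set was likewise above the floor on that array alone. With the floor at 256 its log2 ratio was 0.91. Adamtsl1 gave 46.4, 166 and 536, a Sca-1 step of 3.23-fold up and a combined step of at least 5.76-fold up. Both Adamtsl1 probe sets compared passed 2-fold in the Sca-1 step, at 1.69 and at least 1.19 on the log2 scale. The mean over probe sets was 0.96 for that step, lowered by another Adamtsl1 probe set under the floor on every array. Adamtsl2, another fibrillin-binding member, was within 2-fold throughout, at 124, 106 and 186.

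In this family 4 of 5 genes passed 2-fold upward in the Sca-1 step and 4 of 5 in the combined step, against 14.9% and 14.4% of all genes compared. The family medians of these steps are set by bounds. Of the 3 ADAMTS-like genes above the floor on all 3 arrays (Adamtsl2, Adamtsl3 and Adamtsl4), 2 passed 2-fold upward in each step, against 14.3% and 13.7% of all such genes. Both steps use the same PDGFRα+Sca-1+ array. Adventitial fibroblast markers were high on that array too, with summed signals over 6 genes of 1122, 5009 and 82885 and with 3, 4 and 6 of them above the floor. The part of such cells, and of the higher Actb and Gapdh 3' to 5' ratios on that array, was not tested.

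The 3 TIMP genes above the floor each had a different pattern. Timp1, a broad inhibitor of secreted MMPs, gave 12355, 13415 and 4041. It was high in both Sca-1- populations, with a Sca-1 step of 3.32-fold and a combined step of 3.06-fold down. Timp2, which inhibits MMPs and also joins Mmp14 in activating the Mmp2 precursor, gave 9498, 5894 and 22689.6. It was highest in PDGFRα+Sca-1+ cells, with a Sca-1 step of 3.85-fold and a combined step of 2.39-fold up. All 5 Timp2 probe sets compared passed 2-fold in both steps, with log2 ratios from 1.36 to 2.17 in the Sca-1 step.

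Timp3, a matrix-bound inhibitor that also blocks aggrecanases and ADAM proteinases, gave 6978, 16277 and 7973. It was highest in PDGFRα+Sca-1- cells, with a PDGFRα step of 2.33-fold up and a Sca-1 step of 2.04-fold down. All 4 Timp3 probe sets passed 2-fold in both steps, but their log2 ratios ran from 1.22 to 2.60 in the PDGFRα step and from -3.45 to -1.03 in the Sca-1 step. The Sca-1 step was -0.90 on the log2 scale with arrays scaled to a common median and -0.92 with quantile normalization. Timp4 was under the floor by the probe set that stands for it, and its other probe set was above it in PDGFRα-Sca-1- cells, at 137.

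**Figure D3:**
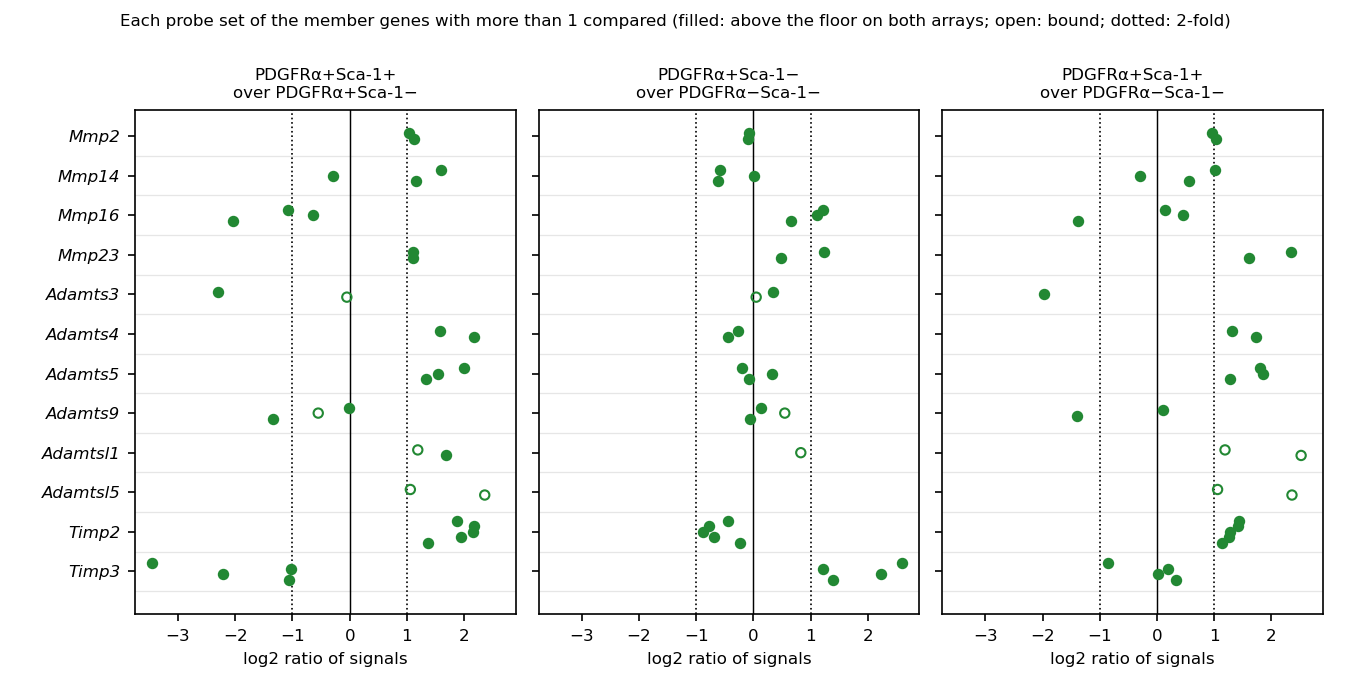
Log2 ratios of each probe set for the 12 genes with more than 1 probe set compared, in the 3 comparisons; filled points were above the floor on both arrays, open points are bounds and dotted lines mark 2-fold. The 5 Timp2 points lie together beyond 2-fold in the left panel, whereas the 4 Timp3 points spread from -3.45 to -1.03.

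Over the families, 22, 23 and 25 of the 42 genes were above the floor, where 60.6%, 60.7% and 59.6% of all genes were. By the probe set that stands for each gene, 27 genes were above it on at least 1 array and 20 of them on all 3 arrays. The remaining 15 genes were above it on no array by that probe set. Of these 15, Mmp19, Mmp24 and Timp4 each had another probe set above it on 1 array, at 158, 97.1 and 137. The 27 were 8 of 18 MMP genes, 11 of 15 ADAMTS genes, 5 of 5 ADAMTS-like genes and 3 of 4 TIMP genes. The signals nearest the floor were 93.1 for an Adamts6 probe set, just under it, and 96.7 for the second Adamts3 probe set, just above it.

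In the Sca-1 step, which separates the PDGFRα+ cells, 14 of the 27 genes that could be compared were higher by 2-fold or more (background 14.9%) and 5 were lower (background 11.3%). The higher genes were Mmp2, Mmp11, Mmp14, Mmp23, Adamts4, Adamts5, Adamts12, Adamts15, Adamts16, Adamtsl1, Adamtsl3, Adamtsl4, Adamtsl5 and Timp2. The lower genes were Mmp13, Adamts3, Adamts9, Timp1 and Timp3. The median log2 ratio was 1.04, against 0.07 over the 11855 genes compared. Mmp11, Adamts15, Adamts16 and Adamtsl5 entered only through their PDGFRα+Sca-1+ signal and so had to be higher, which leaves the counts over the 20 genes above the floor on all 3 arrays. There 9 were higher and 5 lower, against 14.3% and 10.6% of the 9752 genes above the floor on all 3 arrays, and the median was 0.83, against 0.09.

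In the PDGFRα step, which separates the Sca-1- cells, Mmp13, Mmp16, Mmp23, Adamts1 and Timp3 were at least 2-fold higher. These were 5 of 23 genes compared (background 4.82%), and Mmp10 alone was lower (background 5.64%). The median log2 ratio was 0.15, against -0.03 over all genes compared. Of the 20 genes above the floor on all 3 arrays, 5 were higher and 0 lower, against 4.24% and 4.73% of all such genes. None of the 4 ADAMTS-like genes compared passed 2-fold, though the value of Adamtsl1, at least 1.78-fold up, is a bound, and Adamts1 was the only one of 9 ADAMTS genes to do so.

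In the combined step, 13 of 27 genes were at least 2-fold higher (background 14.4%) and 5 lower (background 12.2%). The lower genes were Mmp10, Mmp13, Adamts3, Adamts9 and Timp1. The higher ones were 4 ADAMTS-like genes, 6 of 11 ADAMTS genes, Mmp11, Mmp23 and Timp2. The median log2 ratio was 0.97, against 0.03 over all genes compared. Of the 20 genes above the floor on all 3 arrays, 8 were higher and 4 lower, against 13.7% and 11.1% of all such genes, and the median was 0.62, against 0.04. The 3 comparisons share arrays with one another.

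Set against both other populations at once, PDGFRα+Sca-1+ cells were highest by 2-fold or more for 12 of the 27 genes (background 10.6%) and lowest for 4 (background 6.96%). PDGFRα+Sca-1- cells were highest for Mmp13 and Timp3 (2 genes, background 2.46%) and lowest for 0 genes (background 1.31%). PDGFRα-Sca-1- cells were lowest for Adamts1 and Mmp23 (2 genes, background 1.57%) and highest for Mmp10 alone. Over the 20 genes above the floor on all 3 arrays, PDGFRα+Sca-1+ cells were highest by 2-fold or more for 7, against 9.86% of all such genes, and lowest for 4, against 6.81%.

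**Figure D4:**
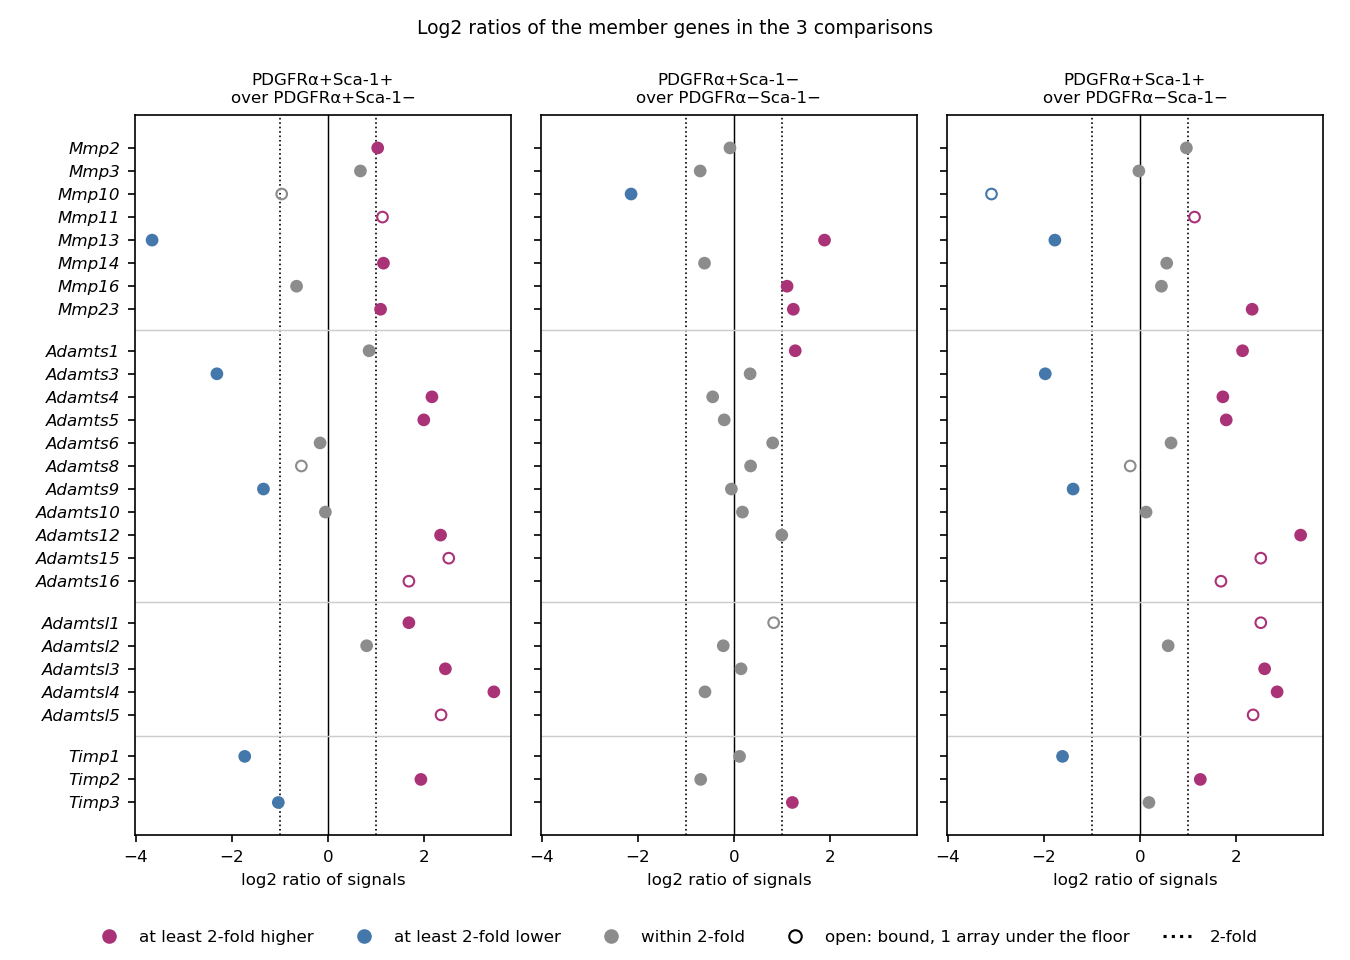
Log2 ratios of signals for the 27 genes in the 3 comparisons; each point is 1 gene, open points are bounds with 1 array under the floor, and dotted lines mark 2-fold. The ADAMTS-like genes lie to the right of 0 in the left and right panels and short of 2-fold in the middle one, and Mmp13 lies left of 0 in the left panel and right of it in the middle one.

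Different probe sets of a gene were the only repeated measurement. Counted by probe set, 26 of 50 were at least 2-fold higher and 10 lower in the Sca-1 step, against 13.5% and 12.3% of all probe sets compared. In the PDGFRα step 9 of 44 were higher and 1 lower, against 5.04% and 4.87%. In the combined step 25 of 48 were higher and 6 lower, against 12.9% and 12.2%. These counts include probe sets above the floor only in PDGFRα+Sca-1+ cells, which had to be higher in the Sca-1 and combined steps. A gene with several probe sets also enters more than once. Within a gene, the SD of the log2 ratios was 0.71, 0.38 and 0.56 for the Sca-1, PDGFRα and combined steps, each over 9 genes of the families, so the 2-fold threshold was 1.4, 2.63 and 1.77 times the SD. A Timp2 and an Mmp16 probe set carry the suffix of probes that can match other transcripts. These SDs cover scatter between probes and transcripts, not between mice or arrays. The next counts take only the probe sets compared for each gene, bounds included. In the same order, these lay on the same side of 0 for 11 of 12, 7 of 10 and 7 of 11 genes. For Adamtsl5 that side was fixed, as both probe sets were above the floor only in PDGFRα+Sca-1+ cells. For Adamts3 the Sca-1 step includes a bound of -0.05.

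Genes for activators of the precursors were counted in the same way. In the Sca-1 step 1 of 7 compared, or 14.3%, was at least 2-fold higher, near the 14.9% of all genes. The lower genes were 2 of 7, or 28.6%, against 11.3% of all genes. In the PDGFRα step 3 of 6 were higher (4.82% of all genes) and 0 lower (5.64%). Plat, the tissue plasminogen activator, gave 1188, 1169.9 and 5906, a Sca-1 step of 5.05-fold up. Plaur, the urokinase receptor, was lowest in PDGFRα+Sca-1+ cells, at 2544, 2982 and 911. The convertases Pcsk6 and Pcsk5, proteinases that process precursors, had PDGFRα steps of 3.28-fold and 3.05-fold up. Plau, the urokinase gene, was above the floor only in PDGFRα+Sca-1+ cells, at 105 by its brighter probe set and 199.7 by the other, which give bounds of at least 1.12-fold and at least 2.14-fold up.

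A further list holds other inhibitors, clearance factors and the MMP inducer Bsg. Of its 6 genes compared, 2 were higher and 1 lower in the Sca-1 step, against 14.9% and 11.3% of all genes. The proteinase inhibitor A2m was lower at each step, at 3125, 492 and 125, and 25.0-fold down in the combined step. Tfpi2, an inhibitor of plasmin and other serine proteinases, had a Sca-1 step of 4.37-fold up. Lrp1, the receptor that takes up several of these enzymes, had a Sca-1 step of 2.90-fold up by its brighter probe set, while its other probe set gave a log2 ratio of -0.18. Reck, a membrane-anchored MMP inhibitor, and Bsg, a surface inducer of MMPs, stayed within 2-fold.

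Of 15 other matrix proteinases, 5 were higher and 2 lower in the Sca-1 step, against 14.9% and 11.3% of all genes. In the combined step 8 were higher and 1 lower, against 14.4% and 12.2%. Adam33 had a Sca-1 step of at least 6.68-fold up. Adam12, an ADAM proteinase made in mesenchymal cells, was highest in PDGFRα+Sca-1- cells, at 225, 941 and 455. The sheddase Adam10 had a combined step of 3.78-fold up and the cathepsin gene Ctsl one of 3.27-fold up. Fap, with 1 probe set, was within 2-fold throughout. The cathepsin gene Ctsb was so by its brightest probe set (10837, 10935 and 18710), but its other probe sets had Sca-1 steps from 1.91-fold to 9.40-fold up.

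Among 12 substrate genes, 3 were higher and 4 lower in the Sca-1 step, against 14.9% and 11.3% of all genes. Vcan, the proteoglycan versican, gave 916, 570.3 and 14356, a Sca-1 step of 25.2-fold up, and that of the basement membrane collagen gene Col4a1 was 14.4-fold up. Acan, the cartilage proteoglycan aggrecan, gave 26626, 26259.9 and 3317, a Sca-1 step of 7.92-fold down, and that of Col2a1, the main cartilage collagen gene, was 6.49-fold down. Fn1, the fibronectin gene, was within 2-fold by its brightest probe set (30456, 30625 and 27217) but 9.53-fold down in the Sca-1 step by its other probe set (11212, 11165 and 1172). Col1a2, a chain of the main bone collagen, was within 2-fold by its brightest probe set (29093, 28478 and 28320), and a dimmer one was 3.11-fold up in the combined step. Signals near the top of the range, which reached 42074, can be compressed by saturation. Among others, this limit bears on these Fn1 and Col1a2 signals, on Acan and Col2a1 in both Sca-1- populations, and on Mmp2 and Timp2 in PDGFRα+Sca-1+ cells. It also bears on Comp on every array, on Ibsp in PDGFRα+Sca-1- cells and on the summed chondrocyte signals of both Sca-1- populations. The limit may bear on Timp3 in PDGFRα+Sca-1- cells too, at 16277.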

How the data were processed

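The deposited values are signal intensities of 45101 probe sets on a linear scale, 1 array for each of 3 sorted populations. Per the submitters' processing notes, the authors computed them with MAS5. Its version is not given in the sources used here, and detection calls were not used. Per the labels' protocols, RNA was extracted with TRIzol, amplified in a two-cycle assay and labelled with biotin. Without the 64 control probe sets, arrays were scaled to a common 2% trimmed mean. Signals below the floor of 93.2 were set to it, and log2 ratios were taken (Python 3.11.15, pandas 2.3.3). Symbols came from the platform annotation; all 78 probe sets matched RefSeq, and 0 symbols changed. All genes on the array were compared in the same way, and ratios of 2-fold or more were counted, with no test. The counting was tested on simulated data. The genes and lists were chosen with earlier results of these data known. Genes of the families above the floor on at least 1 array could be named with values; from the lists of activators, inhibitors, proteinases and substrates, up to 4 genes at least 2-fold apart by largest ratio and up to 2 within 2-fold by brightest signal. Other floors, scalings, probe set rules and a 3-fold threshold were tried. Promoter sequences are from RefSeq, GRCm38.p6.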

Additional observations from a re-analysis of the deposited data

How the results depend on the processing

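Of the log2 ratios of single genes in the families, 0 reversed a reported 2-fold difference under the 7 alternatives tried. With a 3-fold threshold, 3 genes instead of 5 were lower in the Sca-1 step and 1 instead of 5 higher in the PDGFRα step. With the mean over probe sets, 3 genes instead of 5 were higher in the PDGFRα step and 3 instead of 5 lower in the combined step. With the floor at the 33rd percentile, a signal of 41.1, 2 genes instead of 1 were lower in the PDGFRα step. All other counts stayed within 1.5 times the reported value under each alternative. With the floor at the 67th percentile, a signal of 256, Adamts16 and Adamtsl5 were within 2-fold, at 0.23 and 0.91 on the log2 scale. Scaling to a common median moved the median log2 ratio of all genes by 0.131 in the Sca-1 step, -0.023 in the PDGFRα step and 0.108 in the combined step, and took Mmp2 past 2-fold in the combined step, at 1.08. Choosing the probe set after signals were raised to the floor, an alternative added after seeing the data, left all 77 ratios within the scatter between probe sets. Those 77 ratios cover only the 27 genes above the floor by the reported choice. Mmp19, Mmp24 and Timp4, each with another probe set above the floor, are outside them, so this check does not show how that alternative changes these genes. No paired analysis was possible because each population has 1 array and no replicate number. Dim signals near the floor limit what can be said of the genes under it, and no array shows the spread between mice.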
